A study of Mus musculus with 21 samples.

Results

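The comparison described here asked what succinate alone did to the transcriptome of resting mouse macrophages, by setting 4 succinate libraries against 3 untreated control libraries. They are 7 of the 21 libraries of the series, and were chosen by column name from the deposited count table. All 7 were made from bone-marrow-derived macrophages (BMDMs) of C57bl/6 mice aged 12 weeks. BMDMs are macrophages grown out of bone marrow, here for 6 days in L929-conditioned medium, which supplies the macrophage growth factor M-CSF. The succinate group was treated with succinate, which the protocol places 3 h ahead of a period of 4 or 48 h, here without lipopolysaccharide (LPS), the bacterial cell wall component that other groups of the series received. The control group received neither. A further 4 libraries without LPS received dimethyl malonate (DMM), an inhibitor of succinate dehydrogenase, and are used below for 1 comparison. No genetic modification is named for any of these groups, and no dose of succinate or DMM is given in the sources at hand. The labels do not say whether libraries of a group came from separate cultures or animals, so each p-value measures only the spread between these libraries, which may be technical.

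The 7 libraries fall into a set that goes with the LPS exposures of 4 h and one that goes with those of 48 h. Numbers 1 and 3 were read as the 4 h set and numbers 2 and 4 as the 48 h set, which is an inference from the numbering of the columns and not stated in their names. The sample labels use replicates A and B in the 4 h LPS groups and 1 and 2 in the 48 h LPS groups. Succinate carries A, B, 1 and 2, and control A, B and 2. The labels do not tie these to column numbers. Each set then holds 2 succinate libraries, against 2 control libraries in the 4 h set and 1 control library in the 48 h set. Total counts were 736078 to 1223856 in succinate libraries and 832129 to 852811 in control libraries, and the genes with at least 1 read numbered 11799 to 12783 in succinate libraries and 11885 to 11997 in control libraries. No pair of the 7 libraries agreed within sampling noise. Values are given as CPM, read counts scaled to a common library size.

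Succinate is oxidised to fumarate by succinate dehydrogenase, a step of the tricarboxylic acid (TCA) cycle that also feeds the respiratory chain. It accumulates in macrophages exposed to LPS, where it is known to slow the prolyl hydroxylases that mark HIF-1α for degradation and so to favour transcription of the cytokine gene Il1b. Outside the cell it is the ligand of the G-protein-coupled receptor SUCNR1. Resting macrophages make little Il1b, and they handle large amounts of lipid by taking up lipoproteins, storing cholesterol esters and exporting cholesterol to apolipoproteins such as ApoE.

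The 18 measured macrophage marker genes were all abundant enough to be tested, which checks the labelled cell type. Their summed level was 104099 to 126349 CPM in succinate libraries and 92644 to 98256 CPM in control libraries, most of it from the lysozyme gene Lyz2. None of the 18 passed the test, 9 had a positive and 9 a negative log2 fold change, and their median was 0.08. Lyz2 averaged 77682 CPM in succinate libraries and 55128 CPM in control libraries, with a log2 fold change of 0.47 ± 0.16 (standard error, SE) and an adjusted p of 0.207. Defining genes of other cell types were at 0 counts in all 7 libraries: Cd3e and Cd3d of T cells, Cd79a of B cells, Ly6g and S100a8 of neutrophils, and Cpa3 and Mcpt8 of mast cells and basophils. The summed level of 15 neutrophil markers was 11.7 to 21.2 CPM in succinate libraries and 7.04 to 16.8 CPM in control libraries. That of 9 B cell markers, nearly all from Ighm, was 72.7 to 167 CPM in succinate libraries and 72.1 to 145 CPM in control libraries. The 12 T and NK cell markers summed to 2.28 to 3.59 CPM in succinate libraries and 2.35 to 3.61 CPM in control libraries. The 9 dendritic cell markers summed to 3.42 to 13.6 CPM in succinate libraries and 2.40 to 3.57 CPM in control libraries. Markers of mast cells, fibroblasts, erythroid cells and osteoclasts were low as well, at no more than 35.9 CPM summed over a list in any succinate library and 24.0 CPM in any control library. The part of these differences in the results was not tested. In bulk libraries fewer cells of a type and less RNA per cell cannot be told apart.

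Few transcripts passed the test between succinate and control libraries. Of 5101 genes tested, 11 (0.216%) passed an adjusted p of 0.05 in edgeR's quasi-likelihood test with Benjamini-Hochberg adjustment, with the set as a covariate. Of these, 7 genes (0.137% of those tested) were higher with succinate: Pla2g7, Tmem176b, Apoc2, Apoe, Emilin2, Ppp1r8 and Khsrp. The other 4 (0.0784%) were lower: Ifi27l2a, Ttyh2, Sdc4 and Lgals3bp. Ppp1r8 and Khsrp were under the filter's minimum count of 10 in every control library and entered the test through succinate libraries alone. Such genes could hardly be called lower, so their place among the 7 is a description. At an unadjusted p under 0.05 there were 542 genes, and the median log2 fold change over all genes tested was 0.02. For 336 genes (6.59%) the CPM of the succinate and control libraries did not overlap. A fit without the set called 0 genes, with 259 at an unadjusted p under 0.05. DESeq2 called 6 genes, and leaving out 1 library gave 19 without succinate 1, 39 without succinate 3, 4 without succinate 4, 4 without control 1 and 72 without control 4. In all 7 fits that left out 1 library, Pla2g7, Tmem176b, Apoc2 and Ifi27l2a were called. With the library number as a replicate block in place of the set, 6 of the 11 genes were called: Pla2g7, Tmem176b, Apoc2, Ppp1r8, Khsrp and Ttyh2. The other 5, Ifi27l2a, Apoe, Emilin2, Sdc4 and Lgals3bp, had adjusted p of 0.0664 to 0.171 with the block. No control library carries the number 2, so succinate library 2 adds nothing to the succinate effect in that fit. The fit of the 11 libraries without LPS called 3 of the 11, Pla2g7, Tmem176b and Apoc2, and DESeq2 called 5 of them, those 3 with Apoe and Ifi27l2a.

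**Figure D1:**
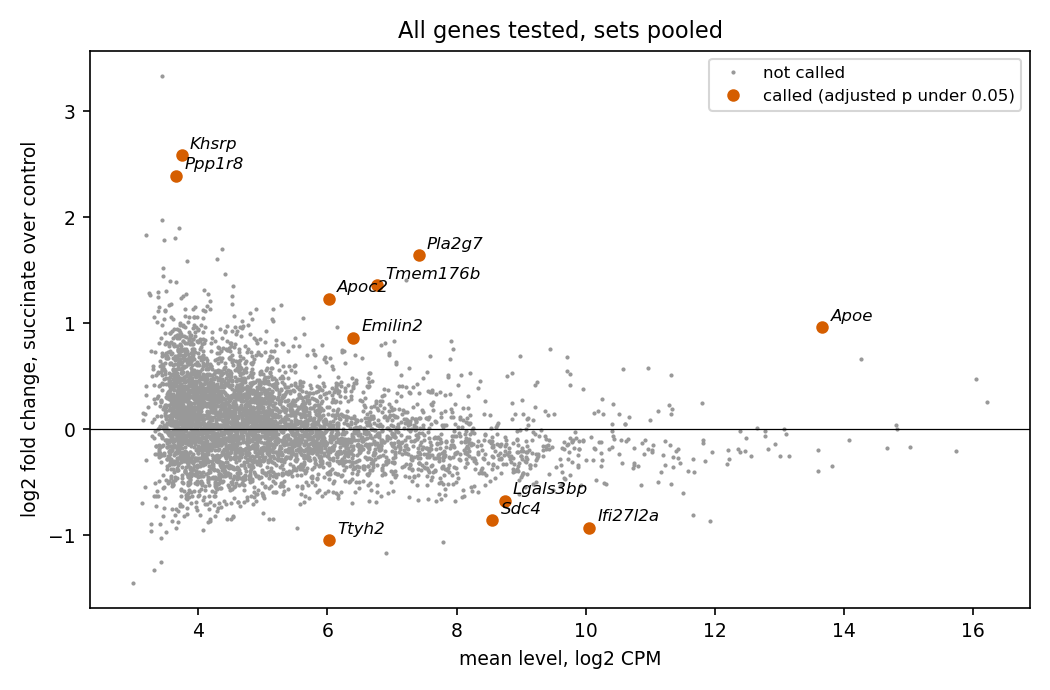
Log2 fold change of succinate over control against mean level (log2 CPM) for the 5101 genes tested, with each gene as a point and the 11 called genes named. Apoe is the most abundant called gene, and Khsrp and Ppp1r8 lie at low levels, where the spread of all genes is wide.

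Pla2g7, Apoc2 and Apoe, 3 of the genes that rose, encode proteins of lipoprotein metabolism. Pla2g7 encodes the lipoprotein-associated phospholipase A2, also called platelet-activating factor acetylhydrolase, which is secreted by macrophages and hydrolyses oxidised phospholipids. It had 190.3 and 156 CPM in the succinate libraries of the 4 h set and 282 and 327 CPM in those of the 48 h set, against 43.2 and 54.8 CPM in the control libraries of the 4 h set and 113 CPM in that of the 48 h set. Every succinate library lay above every control library, and within each set the gap was wider than the spread. The means were 239 ± 79.3 CPM (SD, n = 4) with succinate and 70.4 ± 37.5 CPM (SD, n = 3) in controls. The log2 fold change was 1.64 ± 0.18, a 3.12-fold higher level, with an adjusted p of 2.04e-07. In the annotation used here its exons overlap those of 1700071M16Rik, and the counting is not stated to use strand.

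Apoc2 encodes apolipoprotein C-II, the cofactor that lipoprotein lipase needs to hydrolyse triglycerides. It had 69.8 and 49.7 CPM (4 h set) and 108 and 111 CPM (48 h set) with succinate, against 25.7 and 25.4 CPM (4 h set) and 45.04 CPM (48 h set) in controls. The groups did not overlap, and the log2 fold change was 1.23 ± 0.21 with an adjusted p of 0.00110. Its exons overlap those of Gm44805. Apoe encodes apolipoprotein E, which macrophages secrete and which carries cholesterol out of them. It was among the most abundant transcripts, at 15314 and 17309 CPM (4 h set) and 18408 and 14922 CPM (48 h set) with succinate, against 5371 and 10308 CPM (4 h set) and 9414 CPM (48 h set) in controls. All 4 succinate libraries were above all 3 controls, with 1 control library well below the other two. The log2 fold change was 0.96 ± 0.19, or 1.95-fold, with an adjusted p of 0.0190 (0.171 with the replicate block), and it was called in 2 of the 7 fits that left out 1 library.

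Apoc2 and Apoe lie in the apolipoprotein cluster of chromosome 7, in the order Apoc2, Apoc4, Apoc1 and Apoe. Their promoters are shown with that of Pla2g7, the gene with the smallest p, because these genes rose together. Each window runs from 250 bases before to 50 after a RefSeq start site on GRCm38.p6, 5′ to 3′ on the gene's strand: Pla2g7 at chr17:43568201-43568500 (plus), Apoc2 at chr7:19677892-19678191 (minus) and Apoe, the first of 3 windows listed, at chr7:19699139-19699438 (minus). Capitals mark matches to a nuclear receptor half-site in Apoc2 and to an interferon response core in Apoe.
Pla2g7: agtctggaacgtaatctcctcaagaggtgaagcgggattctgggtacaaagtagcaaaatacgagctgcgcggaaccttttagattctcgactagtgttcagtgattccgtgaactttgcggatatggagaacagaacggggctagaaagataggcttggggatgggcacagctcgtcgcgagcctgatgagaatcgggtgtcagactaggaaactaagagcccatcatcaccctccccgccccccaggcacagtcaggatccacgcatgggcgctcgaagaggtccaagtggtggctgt
Apoc2: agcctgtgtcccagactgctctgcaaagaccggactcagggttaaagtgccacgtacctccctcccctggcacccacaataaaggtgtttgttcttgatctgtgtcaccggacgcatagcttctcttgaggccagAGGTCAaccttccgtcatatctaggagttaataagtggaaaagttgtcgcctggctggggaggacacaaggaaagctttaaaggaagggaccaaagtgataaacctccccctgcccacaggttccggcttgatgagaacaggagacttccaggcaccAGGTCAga
Apoe: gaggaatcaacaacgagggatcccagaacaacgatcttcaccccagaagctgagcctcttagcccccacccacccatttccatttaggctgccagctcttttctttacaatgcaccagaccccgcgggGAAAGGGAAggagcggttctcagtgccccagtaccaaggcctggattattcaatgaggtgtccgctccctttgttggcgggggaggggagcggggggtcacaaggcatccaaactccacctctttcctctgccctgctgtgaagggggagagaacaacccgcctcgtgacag
A set of 6 motifs was searched on both strands: the TATA box (TATAAA), the CCAAT box (CCAAT), AP-1 (TGANTCA), PU.1 (GAGGAAGT), the nuclear receptor half-site (AGGTCA) and the interferon response core (GAAANNGAA). The Apoc2 window held AGGTCA at positions -115 and 43 from the start site, a motif found in 16.04% of 27025 RefSeq promoter windows of the same length. The Apoe window held GAAAGGGAA at position -122, and the core was found in 8.57% of windows. The Pla2g7 window held none of these letters. Windows of other called genes were searched too. Sdc4, which fell, held AGGTCA at position -196, and Emilin2, which rose, held the interferon response core at -24. CCAAT was found in the windows of Ttyh2, which fell, and Khsrp, which rose. No 2 of the matches shown overlap, and a match is a description of the letters only.

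**Figure D2:**
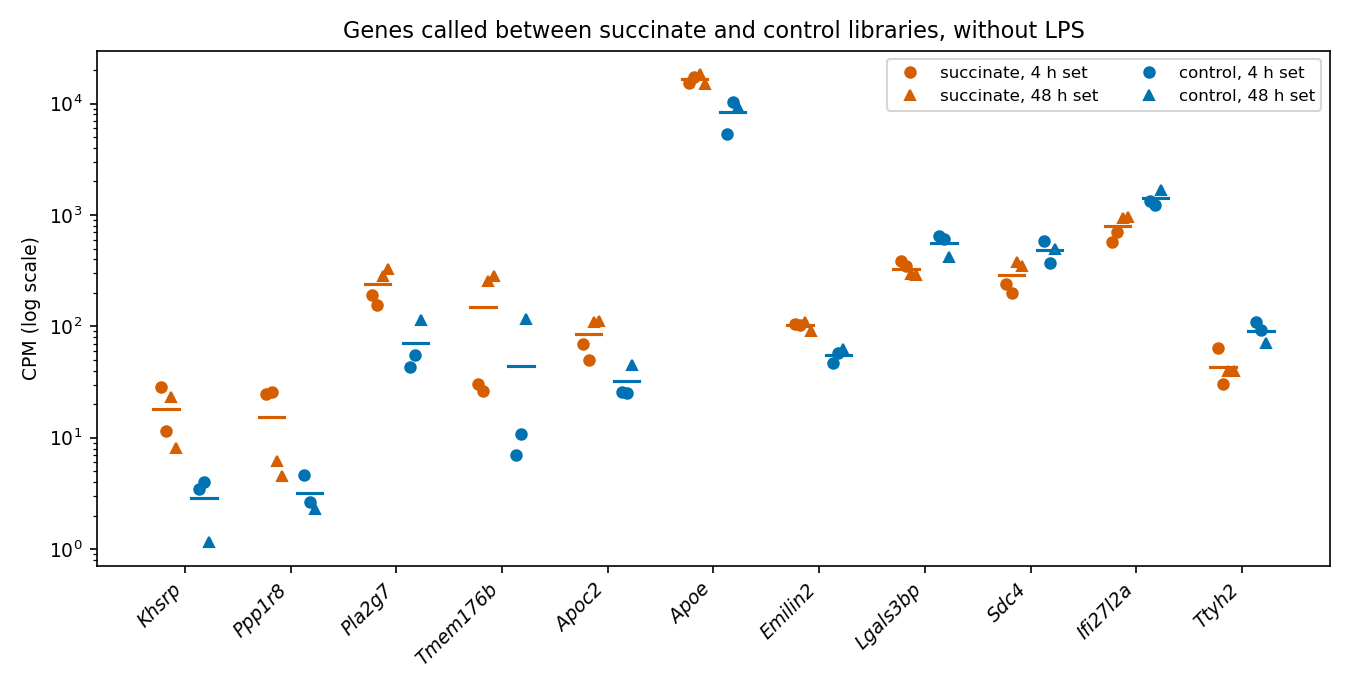
CPM on a log axis of the 11 genes called, in each library: succinate (orange, left) and control (blue, right), with circles for the 4 h set, triangles for the 48 h set and a bar at each group's mean. Pla2g7, Apoc2, Apoe and Emilin2 are higher in every succinate library, Ifi27l2a, Ttyh2 and Lgals3bp are lower in every succinate library, and the sets lie far apart for Tmem176b.

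Tmem176b rose within each set, on top of a large difference between the sets. It encodes a membrane protein that is abundant in myeloid cells. It had 30.1 and 26.5 CPM in succinate libraries of the 4 h set, against 6.998 and 10.7 CPM in controls of that set. In the 48 h set it had 258 and 286 CPM with succinate, against 115 CPM in the 1 control. The groups overlapped when the sets were pooled and were apart within each, and the log2 fold change was 1.36 ± 0.21 with an adjusted p of 0.000494. Its neighbour Tmem176a is transcribed in the other direction from the same stretch of chromosome 6. Tmem176a had 6.84 and 6.62 CPM (4 h set) and 39.4 and 51.4 CPM (48 h set) with succinate, against 0 CPM in both controls of the 4 h set and 18.5 CPM in the 48 h control. It did not pass the test, with an adjusted p of 0.0884. The exons of Tmem176b and Tmem176a overlap in the annotation used here, so without stated strand counting their reads cannot be told apart.

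The promoter windows of the pair, from 250 bases before to 50 after 1 listed RefSeq start each, share 155 bases, which are shown in capitals. They are Tmem176b at chr6:48841088-48841387 (minus) and Tmem176a at chr6:48841233-48841532 (plus), on GRCm38.p6. The capitals of one are the reverse complement of those of the other, and neither window held any of the motifs searched.
Tmem176b: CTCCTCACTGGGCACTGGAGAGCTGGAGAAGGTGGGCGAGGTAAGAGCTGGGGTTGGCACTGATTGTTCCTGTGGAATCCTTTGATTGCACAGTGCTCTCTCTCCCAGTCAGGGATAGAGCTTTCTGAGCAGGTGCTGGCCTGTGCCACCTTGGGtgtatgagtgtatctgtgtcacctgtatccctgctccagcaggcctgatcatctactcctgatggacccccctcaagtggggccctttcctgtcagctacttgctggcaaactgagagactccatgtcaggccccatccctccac
Tmem176a: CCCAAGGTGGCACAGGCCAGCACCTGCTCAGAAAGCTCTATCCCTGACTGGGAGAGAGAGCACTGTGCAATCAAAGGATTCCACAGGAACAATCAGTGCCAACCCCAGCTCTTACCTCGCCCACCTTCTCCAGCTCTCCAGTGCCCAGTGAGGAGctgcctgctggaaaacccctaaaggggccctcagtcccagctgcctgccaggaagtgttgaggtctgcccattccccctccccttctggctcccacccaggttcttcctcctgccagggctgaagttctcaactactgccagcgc

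The other 3 genes that rose have unrelated roles. Emilin2, which encodes a glycoprotein of the extracellular matrix, had 105 and 103 CPM (4 h set) and 108 and 91.0 CPM (48 h set) with succinate, against 46.7 and 57.5 CPM (4 h set) and 62.4 CPM (48 h set) in controls. The succinate libraries lay within a narrow band above all controls, with a log2 fold change of 0.87 ± 0.18 and an adjusted p of 0.0246 (0.0834 with the replicate block). Khsrp encodes an RNA-binding protein that speeds decay of AU-rich messages. It had few reads, 21, 14, 19 and 9 in succinate libraries 1, 3, 2 and 4, against 3, 3 and 1 in control libraries 1, 3 and 4. Its log2 fold change was 2.59 ± 0.57 with an adjusted p of 0.0416, it was called in 1 of the 7 fits that left out 1 library, and its exons overlap those of Gm17949. Ppp1r8 encodes a nuclear regulator of protein phosphatase 1. It had 18 and 31 reads in succinate libraries of the 4 h set and 5 each in those of the 48 h set, against 4 and 2 in controls of the 4 h set and 2 in that of the 48 h set. In CPM its groups overlapped, since the 2 succinate libraries of the 48 h set stood near the controls, and the log2 fold change was 2.39 ± 0.52 with an adjusted p of 0.0263. It passed the filter on low counts in 5 of the 7 fits that left out 1 library and was called in 2 of them. In the main fit Khsrp and Ppp1r8 passed that filter only through succinate libraries, since every control count was under 10.

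Ifi27l2a, an interferon-induced gene, was the gene with the smallest p among those that fell. It had 571 and 700.2 CPM (4 h set) and 944 and 969.9 CPM (48 h set) with succinate, against 1325 and 1237 CPM (4 h set) and 1668 CPM (48 h set) in controls. Every succinate library lay below every control library, with means of 796 ± 193 CPM (SD, n = 4) and 1410 ± 228 CPM (SD, n = 3). The log2 fold change was -0.93 ± 0.16, or 0.526-fold, with an adjusted p of 0.00110 (0.0697 with the replicate block). The 26 tested genes of the type I interferon list held no called gene: 11 had a positive and 15 a negative log2 fold change, with a median of -0.10 against 0.02 for all genes tested. Its members with the smallest p were Rtp4 at -0.54 ± 0.16, a chaperone of membrane receptors, and Oas1a at -0.57 ± 0.22, a sensor of double-stranded RNA, with adjusted p of 0.149 and 0.319. At an unadjusted p under 0.05, 4 of the 26 were lower and 0 higher, beside 262 lower and 280 higher of all 5101 tested. In fits of each set alone the list's median was -0.06 in the 4 h set and -0.37 in the 48 h set. That difference was not tested.

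The other 3 genes that fell encode membrane or secreted proteins. Ttyh2, of the tweety family of membrane proteins, had 64.3 and 30.6 CPM (4 h set) and 39.4 and 39.7 CPM (48 h set) with succinate, against 109.6 and 93.6 CPM (4 h set) and 71.6 CPM (48 h set) in controls. The groups did not overlap, and the log2 fold change was -1.05 ± 0.21 with an adjusted p of 0.0167. Sdc4, which encodes the heparan sulfate proteoglycan syndecan-4, had 239.5 and 198 CPM (4 h set) and 377 and 351 CPM (48 h set) with succinate, against 582 and 368 CPM (4 h set) and 500.1 CPM (48 h set) in controls. Its groups overlapped by 1 library on each side, and the log2 fold change was -0.86 ± 0.18 with an adjusted p of 0.0246 (0.0664 with the replicate block). Lgals3bp, which encodes a secreted glycoprotein that binds galectins, had 387 and 352 CPM (4 h set) and 293 and 288 CPM (48 h set) with succinate, against 652 and 603 CPM (4 h set) and 419 CPM (48 h set) in controls. Its groups did not overlap, and the log2 fold change was -0.67 ± 0.16 with an adjusted p of 0.0478 (0.171 with the replicate block). Over the 7 fits that left out 1 library, Ttyh2 was called in 4, Sdc4 in 5, Lgals3bp in 2 and Emilin2 in 3.

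The next genes by p did not pass the test. On the higher side these were Mfsd10, a membrane transporter, at a log2 fold change of 1.36 ± 0.32, Sema4a, a semaphorin, at 1.47 ± 0.37, and Ccnd1, which encodes the cell cycle regulator cyclin D1, at 1.02 ± 0.25. Ccnd1 averaged 43.3 ± 7.81 CPM with succinate (SD, n = 4) and 20.04 ± 4.83 CPM in controls (SD, n = 3), and its adjusted p was 0.0867. On the lower side they were Gyg, which encodes the glycogen primer glycogenin, at -0.68 ± 0.16, Vps26a of the retromer complex at -0.67 ± 0.16, and Arl8b, a GTPase that positions lysosomes, at -0.61 ± 0.15. Hpgd, the enzyme that inactivates prostaglandins, stood at -0.64 ± 0.16, the ribosomal protein gene Rps25 at -0.66 ± 0.17 and the pyridoxal kinase gene Pdxk at -0.62 ± 0.16. Adjusted p for these 9 genes lay between 0.0543 and 0.0961.

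Genes that sense, make or use succinate did not pass the test. The receptor gene Sucnr1 had 0 counts in each of the 7 libraries. With 3 counts as the limit that a count of 0 allows, this limits its level to 0.759 CPM over the summed succinate libraries and 1.19 CPM over the summed control libraries, counting error only. Of 17 measured genes of succinate handling and signalling, 9 could be tested, 3 with a positive and 6 with a negative log2 fold change, and their median was -0.07. The dehydrogenase subunit genes Sdha and Sdhb averaged 203 and 122 CPM with succinate, against 212 and 139.6 CPM in controls. Their log2 fold changes were -0.07 ± 0.16 and -0.23 ± 0.16, with adjusted p of 0.915 and 0.657. Irg1, now named Acod1, whose product makes the dehydrogenase inhibitor itaconate, had 21, 25, 16 and 15 counts in succinate libraries 1, 3, 2 and 4, against 12, 10 and 2 counts in control libraries 1, 3 and 4. Its log2 fold change of 1.21 ± 0.38 had an adjusted p of 0.165. Slc25a10, the mitochondrial dicarboxylate carrier, stood at 0.82 ± 0.29 and Sucla2, a subunit of succinate-CoA ligase, at -0.58 ± 0.26, with adjusted p of 0.236 and 0.403. Idh1, the cytosolic isocitrate dehydrogenase, averaged 946 CPM with succinate and 764 CPM in controls, with a log2 fold change of 0.42 ± 0.17 and an adjusted p of 0.352.

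Without LPS, the cytokine genes were near the limit of detection. Il1b had 7, 17, 2 and 3 counts in succinate libraries 1, 3, 2 and 4, against 3 counts in each control library. Tnf had 4, 8, 2 and 6 counts in the same succinate libraries, against 6, 4 and 5 in controls. Neither could be tested, and succinate library 3 held 17 of the 29 Il1b reads of the succinate libraries. Il1a and Il6 had 0 counts in all 7 libraries. Nos2 had 4 counts in the succinate libraries together and 0 in the controls, and Ptgs2 had 1 count in all. Il1rn, which encodes the interleukin-1 receptor antagonist, could be tested: it averaged 20.4 CPM with succinate and 10.9 CPM in controls, with no overlap, a log2 fold change of 0.91 ± 0.35 and an adjusted p of 0.310. Hif1a, the gene of the oxygen-regulated transcription factor subunit, stood at -0.20 ± 0.19. Of 24 HIF-1 regulators and targets measured, 10 could be tested, none was called, 7 were positive and 3 negative, and the median was 0.29. The hypoxia-inducible gene Ndrg1 had the smallest p of the 10, at 0.63 ± 0.29 with an adjusted p of 0.419.

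Among lists of genes by function, only lipid handling held genes that passed the test. It had 2 of 19 tested genes called, Pla2g7 and Apoe, both higher, beside 0.137% of all genes tested. These lists were chosen with earlier results of these data known, so that count is a description. Other members near them by p did not pass: Lpl, the lipoprotein lipase for which ApoC-II is the cofactor, averaged 3010.5 CPM with succinate and 1983 CPM in controls, with a log2 fold change of 0.52 ± 0.16 and an adjusted p of 0.165. Cpt1a, which brings fatty acids into mitochondria, stood at 0.97, the scavenger receptor gene Cd36 at 0.51, and the cholesterol exporter gene Abcg1 at -0.42. The other cholesterol exporter gene, Abca1, stood at 0.10. The median of the list was 0.15, against 0.02 for all genes tested. In fits of each set alone it was 0.02 in the 4 h set and 0.47 in the 48 h set, which has 1 control library. That difference was not tested.

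**Figure D3:**
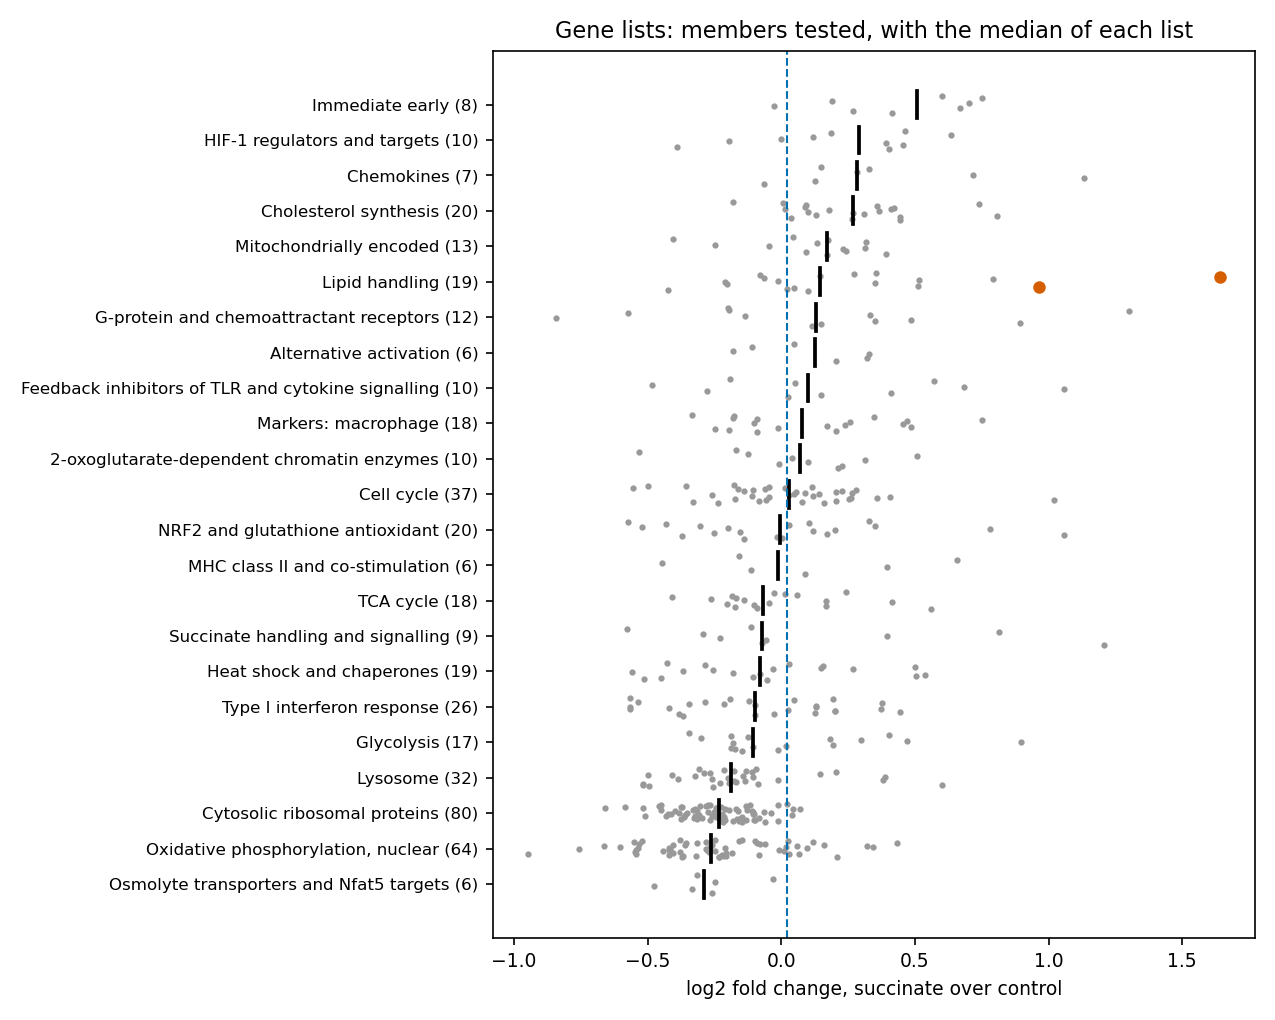
Log2 fold change of succinate over control for the tested members of each list with at least 5 of them (points; number tested in brackets), with the list's median as a black bar and the median of all genes tested as a dashed line. Orange points, Pla2g7 and Apoe, are the only members called in these lists.

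Several lists leaned one way without a called member. Over all 5101 genes tested, 2715 log2 fold changes were positive and 2386 negative (46.8%), and abundance moved with the sign. At an unadjusted p under 0.05, 280 of the 5101 were higher and 262 lower with succinate. Of the 1275 genes with the highest mean level 68.6% were negative, with a median of -0.13 and 186 lower at an unadjusted p under 0.05, and of the 1276 with the lowest 33.8%, with a median of 0.17. Of 20 tested genes of cholesterol synthesis, 19 had a positive log2 fold change, with a median of 0.27, and 4 had an unadjusted p under 0.05. Of the 20, 8 were among the 1275 most abundant, and the part of abundance was not tested. Fdft1, squalene synthase, stood at 0.81 ± 0.23 and Sqle, squalene epoxidase, at 0.74 ± 0.22. Both had non-overlapping CPM, at 45.1 and 89.3 CPM with succinate, against 26.1 and 54.3 CPM in controls, with adjusted p of 0.127 and 0.143.

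Nuclear genes of oxidative phosphorylation leaned lower, with 51 of 64 negative, a median of -0.26 and 16 lower at an unadjusted p under 0.05, and 26 of the 64 were among those 1275 most abundant genes. Within the sets their median was -0.35 in the 4 h set and -0.14 in the 48 h set. Cox6b1, of cytochrome c oxidase, stood at -0.55 ± 0.17. Genes of cytosolic ribosomal proteins were negative in 76 of 80, with a median of -0.23, and 77 of the 80 were among them too. Their median was -0.32 in the 4 h set and -0.04 in the 48 h set. Many have near-identical pseudogene copies, so their counts are uncertain. Ribosomal protein genes took 2.25% to 3.46% of all counts in succinate libraries and 2.60% to 3.72% in control libraries, so the groups overlapped. Mitochondrially encoded genes did not lean lower, at 10 positive of 13 and a median of 0.17. Of 32 lysosome genes 27 were negative, with a median of -0.19 and 27 of the 32 among the 1275 most abundant. Their median was -0.31 in the 4 h set and -0.04 in the 48 h set. The medians within sets come from fits of each set alone, and their differences between sets were not tested. Atp6v1a of the proton pump and the membrane protein gene Cd63 both stood at -0.52, with SE of 0.16 and 0.17. The part of abundance in these leanings was not tested. Of 8 immediate early genes tested 7 were positive, with a median of 0.51, and 3 of the 8 were among the 1275 most abundant. Another 22 could not be tested. Of 7 tested chemokine genes 6 were positive, with a median of 0.28, and 4 of the 7 were among the 1275 most abundant. The part of abundance in these lists was not tested either. Ccl6 averaged 148 CPM with succinate and 85.1 CPM in controls, a log2 fold change of 0.72 ± 0.22 with an adjusted p of 0.18. Within the sets Ccl6 stood at 0.21 ± 0.22 in the 4 h set and 1.51 ± 0.29 in the 48 h set, with adjusted p of 0.744 and 0.00724. The value in the 48 h set rests on 1 control library, and the difference between sets had an adjusted p of 0.156.

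Succinate and control were next compared within each set. All 11 called genes had the same direction in both sets, which the pooled call itself favours. Pla2g7 stood at 1.796 ± 0.24 in the 4 h set and 1.43 ± 0.27 in the 48 h set. Apoc2 stood at 1.17 ± 0.29 and 1.28 ± 0.31, Apoe at 1.04 ± 0.23 and 0.82 ± 0.29, and Ifi27l2a at -1.03 ± 0.20 and -0.80 ± 0.23, in the same order. None of the 11 passed the test of the difference between sets, which does not show that the sets were alike. The smallest adjusted p among them was 0.763, for Sdc4, at -1.15 ± 0.21 in the 4 h set and -0.46 ± 0.25 in the 48 h set. The 48 h set has 1 control library, so its values rest on that library and on the assumption that it varies like the others.

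**Figure D4:**
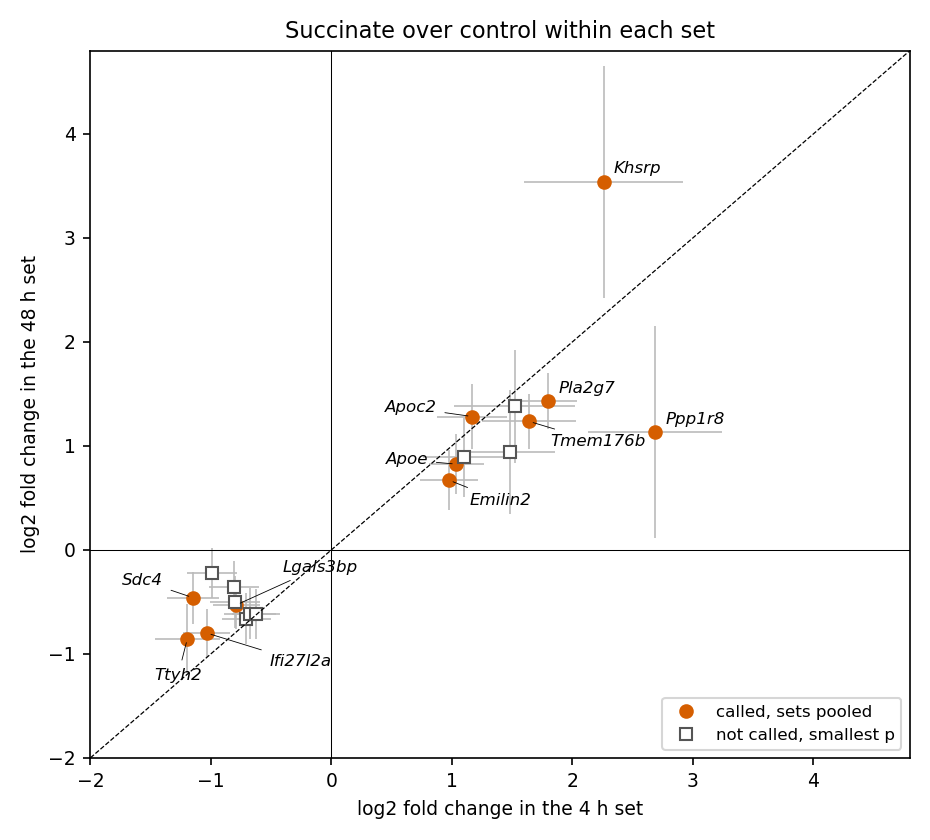
Log2 fold change of succinate over control in the 4 h set (x axis) and the 48 h set (y axis), with SE as bars, for the 11 called genes (filled) and the 9 uncalled genes with the smallest p (open); the dashed line marks equal values. All 20 have the same sign in both sets, and Khsrp and Ppp1r8 have the widest errors.

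The succinate change differed between the sets for 20 of 5852 genes tested (0.342%), and the signed log2 change was higher in the 48 h set for 9 of them and lower for 11. Among those with an established gene name, Mpeg1, which encodes the macrophage pore-forming protein perforin-2, stood at -1.03 ± 0.19 in the 4 h set and 0.31 ± 0.24 in the 48 h set. It had 1035 and 2016 counts in the succinate libraries of the 4 h set and 2470 and 3401 in those of the 48 h set, against 2622 and 2359 and then 2129 in controls. Bhlhe41, a transcriptional repressor, stood at -1.14 ± 0.23 and 0.63 ± 0.31, and Lars2, the mitochondrial leucyl-tRNA synthetase, at -1.46 ± 0.22 and 0.27 ± 0.26. With succinate Lars2 had 1081 and 1873 counts (4 h set) and 3190 and 4693 counts (48 h set). Counts of the microRNA locus Mir5105, also among the 20, moved alike, at 1393 and 1708 and then 4270 and 5251. Whether the reads at these loci come from the named genes was not tested. The count of 20 became 123 without succinate 1, 72 without succinate 3, 3 without succinate 2 and 8 without succinate 4, and DESeq2 called 3. It could not be computed without control 4, the 1 control of the 48 h set.

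Succinate was also set against DMM, which blocks the enzyme that oxidises succinate. In a fit of the 11 libraries without LPS, 95 of 5635 genes (1.69%) differed between 4 succinate and 4 DMM libraries, 48 higher and 47 lower with succinate. The count was 62 without succinate 1 and 59 without DMM 4. This test uses the same succinate libraries that called the 11 genes, and is no independent support for them. Of the 11, Apoc2, Pla2g7 and Apoe were higher with succinate than with DMM, and Ifi27l2a was lower. On a CPM scale common to 20 libraries of the series, Apoc2 had 42.1 to 94.6 CPM in succinate libraries and 9.57 to 36.1 CPM in DMM libraries, a log2 difference of 1.76 ± 0.21 with an adjusted p of 2.20e-06. Pla2g7 had 133 to 279 CPM in succinate libraries and 81.4 to 170.0 CPM in DMM libraries, a difference of 0.71 ± 0.16 with an adjusted p of 0.0106. The differences were 0.69 ± 0.18 for Apoe and -0.81 ± 0.17 for Ifi27l2a, with adjusted p of 0.0362 and 0.00648. With the replicate block the adjusted p for Apoe was 0.0530.

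Against the same 3 controls, the values of the 2 treatments stood side by side as follows in the 11-library fit. The comparisons share those controls. Apoc2 stood at 1.20 ± 0.22 for succinate and -0.56 ± 0.25 for DMM, and Ifi27l2a at -0.90 ± 0.19 for succinate and -0.09 ± 0.18 for DMM. Pla2g7 stood at 1.62 ± 0.18 for succinate and 0.92 ± 0.19 for DMM, which had an adjusted p of 0.00420 against the controls. Khsrp stood at 2.60 ± 0.63 for succinate and 2.87 ± 0.62 for DMM, with adjusted p of 0.257 and 0.0110. Tmem176b stood at 1.36 ± 0.24 for succinate and 1.796 ± 0.24 for DMM, and Emilin2 at 0.86 ± 0.19 and 0.97 ± 0.19. Ttyh2 stood at -1.02 ± 0.23 for succinate and -1.34 ± 0.24 for DMM, and Lgals3bp at -0.72 ± 0.16 and -0.87 ± 0.16. For DMM in this fit, adjusted p for Tmem176b, Emilin2, Ttyh2 and Lgals3bp were 2.89e-05, 0.00343, 0.00108 and 0.00193. For succinate in this fit, adjusted p was 0.00933 for Tmem176b and 0.0776 for each of Emilin2, Ttyh2 and Lgals3bp. Between succinate and DMM directly, these last 4 genes differed by -0.43 ± 0.19, -0.11 ± 0.16, 0.31 ± 0.24 and 0.15 ± 0.15, in the order given, and none passed the test.

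Other named genes that differed between succinate and DMM had not passed the test of succinate against controls. Idh1 was higher with succinate than with DMM by 0.80 on the log2 scale, with an adjusted p of 0.00433. H2-Ab1 and H2-Aa, which encode chains of an MHC class II molecule, differed by -1.51 and -1.21, with adjusted p of 0.000508 and 0.00903, at means of 15.2 and 15.6 CPM in succinate libraries. The platelet factor gene Pf4 differed by -2.18 and the microtubule regulator gene Stmn1 by -0.99, with adjusted p of 0.000334 and 0.0484. Against controls in the 11-library fit, H2-Ab1, H2-Aa and Pf4 stood at 1.02, 1.57 and 2.28 for DMM. Their adjusted p for DMM in that fit were 0.0497, 0.00593 and 0.00312. For succinate they stood at -0.49, 0.36 and 0.10. Idh1 and Stmn1 stood at -0.41 and 0.45 for DMM and at 0.39 and -0.54 for succinate, and passed with neither.

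**Figure D5:**
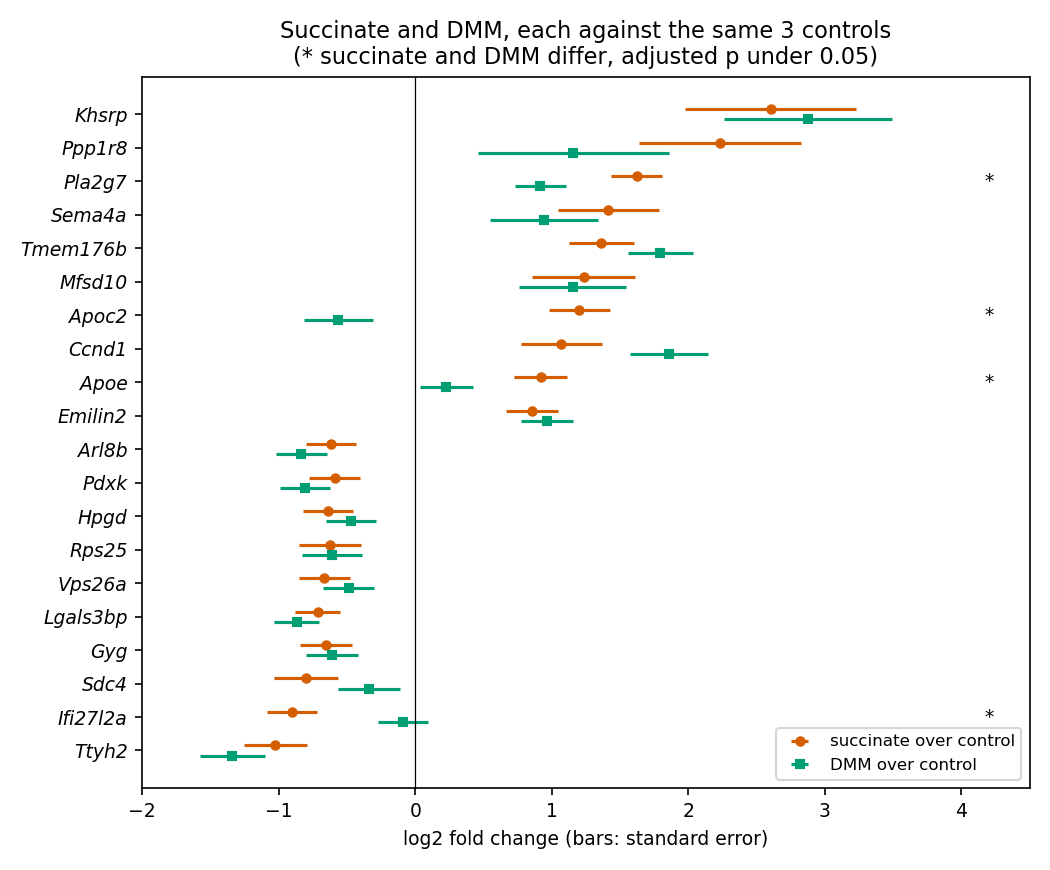
Log2 fold change over the same 3 control libraries for succinate (orange circles) and DMM (green squares), with SE as bars, for the 20 genes named by rule; an asterisk marks genes that differ between succinate and DMM. Apoc2, Pla2g7, Apoe and Ifi27l2a carry asterisks, and Apoc2 lies on opposite sides of 0.

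Libraries with LPS gave the levels of these genes in stimulated cells. On the CPM scale common to 20 libraries, Pla2g7 had 5735 CPM in the 1 library of succinate followed by LPS for 4 h, against 3076 and 3696 CPM with LPS for 4 h alone. It had 5549 CPM in the 1 library of succinate followed by LPS for 48 h, against 2816 CPM in 1 library with LPS for 48 h alone. The other library labelled LPS 48 h is left out of that scale: it had 1 read of Il1b and 38 of the acute-phase gene Saa3, against 5163 and 97578 reads in the one used and 3 and 30 to 61 reads in controls. It had 184 reads of Pla2g7. On this scale the 4 libraries of succinate without LPS had 133 to 279 CPM and the 3 controls 37.8 to 97.9 CPM. Apoe had 4019 CPM with succinate and LPS for 4 h, against 3564 and 3468.5 CPM with LPS for 4 h alone. Apoc2 and Tmem176b, higher with succinate in cells without LPS, were lower in the libraries of succinate followed by LPS. Apoc2 had 9.29 CPM with succinate and LPS for 4 h, against 15.5 and 14.4 CPM with LPS for 4 h alone, and 25.8 CPM with succinate and LPS for 48 h, against 33.2 CPM with LPS for 48 h alone. Tmem176b had 23.9 CPM with succinate and LPS for 4 h, against 31.02 and 39.8 CPM with LPS for 4 h alone, and 86.9 CPM with succinate and LPS for 48 h, against 206 CPM with LPS for 48 h alone. With 1 library of succinate and LPS at each time these are values with no test.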

How the data were processed

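Bulk RNA of mouse BMDMs was sequenced after a modified SmartSeq2 protocol, per the labels' protocols, which name no molecular identifiers, so intervals and floors cover counting error only. The authors deposited raw read counts for 34573 genes in 21 libraries. TopHat2, Bowtie, HTSeq and edgeR are named, per the submitters' processing notes; their versions, the build, the annotation and the strand setting were not stated in any source used. Every column matched a group by its name; the set (4 h or 48 h) was read from column numbers.

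Genes were kept by edgeR's filterByExpr (version 4.0.16, R 4.3.3) at a minimum count of 10 and a minimum total of 15, libraries were scaled by TMM, and the quasi-likelihood test with robust estimation was fitted to 7 libraries with the set as a covariate. Residual degrees of freedom were 4 and the biological coefficient of variation 0.162. P-values were adjusted by Benjamini-Hochberg over all genes tested, with a threshold of 0.05; SE is the log2 fold change over the square root of F. CPM are counts per kept total times the TMM factor. Summed levels of marker lists and the limit for Sucnr1 are instead counts per raw library total, without the TMM factor. The test between sets used an interaction term, and that against DMM a fit of 11 libraries. DESeq2 1.42.0, median-of-ratios scaling, other filters, other sets of libraries, the replicate block and leaving out each library were alternatives. Same-numbered succinate and control libraries had deviations from their group means that correlated at 0.36, 0.26 and 0.55, so the numbers were taken as pairs. The sample labels name replicates shared by succinate and control, but do not tie them to column numbers. The pairing of columns thus comes from the data, and such deviations also hold the difference between sets. Libraries of the same set with other numbers correlated at 0.28 to 0.42, so number and set cannot be told apart here. After set and treatment were fitted, the remaining deviations correlated at -0.13, -0.20 and -0.41 for the same numbers. They correlated at -0.59 to -0.19 for other numbers of the same set. In such a fit the remaining deviations cancel out within each set, so a negative lean was fixed in advance. These values therefore cannot decide whether the numbers are pairs.

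Named genes were all called genes, the uncalled genes with the smallest p up to 10 in each direction, up to 3 members of each list with the smallest p, and 18 panel genes of cytokines and metabolism; other list members named (Cpt1a, Cd36, Abcg1, Abca1), Tmem176a and the genes that differ between sets were chosen after their values were seen. The comparison and the lists were chosen with earlier results of these data known. Sequences are RefSeq's. Ratios of genes with 1 to 3 counts in a group are not printed.
Some genes are not reported here.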

Additional observations from a re-analysis of the deposited data

Results flagged for a closer look

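Of 67 groups of 4 libraries examined for a lone high or low value, 1 stood out, where chance gives about 1 in 20. Ccl5, a chemokine gene, had 85.0 CPM in 1 succinate library, against 28.8 to 35.6 CPM in the other 3. Ccl5 did not pass the test against controls.

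The other results below are the 20 genes whose succinate change differed between the 48 h and the 4 h set by an interaction term in edgeR's quasi-likelihood test. Each value is the log2 change in the 48 h set minus that in the 4 h set. The 48 h set has 1 control library, whose part in these differences was not tested. Higher in the 48 h set were CT030702.1 at 2.74, AA474408 at 2.56, Mir5105 at 2.34, Bhlhe41 at 1.77, Gm15662 at 1.75, Lars2 at 1.73, Gnb1 at 1.69, Gm12563 at 1.41 and Mpeg1 at 1.35. In each of these 9 the estimate was negative in the 4 h set and positive in the 48 h set. The 48 h values ran from 0.27 ± 0.26 for Lars2 to 1.33 ± 0.47 for CT030702.1. Lower in the 48 h set were Gm9877 at -3.33, Gm15249 at -2.88, Gm12018 at -2.24, Cbfa2t2 at -2.14, AI838599 at -2.06, Gm10660 at -1.78, Sik2 at -1.78, Gm20469 at -1.72, RP24-547D11.3 at -1.57, Pkib at -1.49 and Mrpl48 at -1.48. In each of these 11 the estimate was positive in the 4 h set and negative in the 48 h set. The 48 h values ran from -0.23 ± 0.26 for Pkib to -0.76 ± 0.39 for Cbfa2t2, with Gm9877 apart at -2.11 ± 0.26. Where a 48 h value is near its SE its sign is uncertain, so opposite signs alone do not show a reversal. Gm9877 had 153 and 144 counts in the succinate libraries of the 4 h set and 138 and 240 in those of the 48 h set, against 52 and 57 counts in controls of the 4 h set and 725 in the 1 control of the 48 h set.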

How the results depend on the processing

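The count of 11 genes changed by succinate became 6 with DESeq2, 35 with no filter on low counts, 7 with a minimum count of 30, 0 without the set as a covariate, 3 in the fit of 11 libraries, 4 in that of 20 libraries, 29 in the 4 h set alone, 35 in the 48 h set alone and 77 without both libraries numbered 4, an alternative chosen after seeing the data. Leaving out 1 library gave 4 (without succinate 4 or control 1) to 72 (without control 4). It was 10 with median-of-ratios scaling. The 20 genes that differ between sets became 3 with DESeq2, 1 in the fit of 11 libraries, and 3 (without succinate 2) to 123 (without succinate 1) with 1 library left out. The 95 genes that differ from DMM became 59 (without DMM 4) to 116 (without DMM 2), and 68 with DESeq2. Of named genes tested under these settings, 1073 pairs of gene and setting kept direction and side of the threshold, 82 lost and 30 gained the call, and 3 turned sign. Those are Hif1a in the 48 h set alone, at 0.0180, and Sdha in the 48 h set alone, at 0.0821, and over libraries left out, from -0.18 (without control 4) to 0.0140 (without succinate 3). None of the 11 called genes turned sign under any setting run.

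A replicate block gave 8 genes against control, 6 of them among the 11 beside Prcp and Snx20, and 97 against DMM. Of the genes named, it ended the calls of Ifi27l2a, Apoe, Emilin2, Sdc4 and Lgals3bp against control and of Apoe against DMM, and changed no other call named against control or against DMM. The cause of these changes was not tested. In the block fit against control, succinate library 2 had no control of its number and added nothing to the succinate effect. At 736078 to 1223856 counts a library, genes of a few reads, such as most cytokines here, could not be tested, and 12 of the 18 panel genes were below the filter.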

Other observations

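The remaining lists held no called gene. Among 12 tested G-protein-coupled and chemoattractant receptor genes, 7 had a positive and 5 a negative log2 fold change, with a median of 0.13. The chemokine receptor gene Cxcr4 averaged 22.4 CPM with succinate and 45.97 CPM in controls, a log2 fold change of -0.84 ± 0.25 with an adjusted p of 0.143 in edgeR's quasi-likelihood test. Ptger4, a receptor gene of prostaglandin E2, stood at 1.30 ± 0.52 with an adjusted p of 0.337. Among 17 tested glycolysis genes, 7 were positive and 10 negative, with a median of -0.11, and Pfkfb3, whose product makes an activator of glycolysis, averaged 32.0 CPM with succinate and 17.5 CPM in controls, at 0.90 ± 0.29 with an adjusted p of 0.18. The 18 tested TCA cycle genes had a median of -0.07, with 7 positive and 11 negative, and Mdh1, the cytosolic malate dehydrogenase gene, stood at -0.41 ± 0.17.

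Among 19 tested heat shock and chaperone genes, 7 were positive and 12 negative, with a median of -0.08, and the endoplasmic reticulum chaperone genes Hsp90b1 and Calr stood at -0.56 ± 0.16 and -0.51 ± 0.16. All 6 tested osmolyte transporters and Nfat5 targets were negative, with a median of -0.29, which was -0.47 in the 4 h set and -0.005 in the 48 h set, and the amino acid transporter gene Slc38a2 stood at -0.48 ± 0.16. The 20 tested antioxidant genes were split 10 to 10, with a median of -0.01, and the thioredoxin gene Txn1 stood at -0.57 ± 0.17. Medians were 0.10 over the 10 tested feedback inhibitors of TLR and cytokine signalling (4 h set -0.13, 48 h set 0.42), and for the 10 chromatin enzymes that depend on oxoglutarate 0.07, the 6 genes of alternative activation 0.13 (4 h set 0.38, 48 h set -0.18), the 37 cell cycle genes 0.03 and the 6 genes of MHC class II and co-stimulation -0.01. The median of all 5101 genes tested was 0.02.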
